A study of Homo sapiens with 6 samples.

Results

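The enzymes that build cholesterol and fatty acids, together with the proteins that control their genes, were followed in a bile duct cancer line. The list held 29 genes, chosen by their place in the pathway with earlier results of these data known. Members were all array probes annotated to these genes whose detection p-value, which sets a probe against the negative controls of its array, was under 0.05 on 3 or more of the 6 arrays. This gave 25 genes through 34 probes, out of 11586 genes and 15830 probes that passed the same filter. The 25 genes were each detected on all 6 arrays. The STARD4 probe was detected on 0 of 6 arrays, and no probe annotated to FDPS, FDFT1 or HSD17B7 was analysed here.

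Total RNA came from 2 stable derivatives of HuCCT1, an established human cholangiocarcinoma cell line, hybridised to single-colour Illumina bead arrays. In the first derivative the cells were labelled as overexpressing WTAP, a subunit that guides the m6A methyltransferase to messenger RNA (3 arrays). In the second, the mock cells, they carried an empty vector (3 arrays). Both were grown in RPMI1640 with serum, HEPES and antibiotics. In both groups the array titles end in p4, p5 and p6, written here as array numbers 4, 5 and 6. The sources used here do not give what the numbers mark, the promoter that drives the transgene, or whether a derivative is 1 clone. Nothing says that the arrays of a group came from separate cultures, so the spread behind the p-values is that of these samples and may be technical.

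Cells make cholesterol from acetyl-CoA through mevalonate, farnesyl diphosphate, squalene and lanosterol, and they make fatty acids from the same acetyl-CoA. Most of these enzyme genes are switched on by the SREBP transcription factors. When sterols are scarce, SCAP escorts SREBP from the endoplasmic reticulum to the Golgi, where proteases release its active part. When sterols are plentiful, INSIG proteins hold the complex back, so the genes of the pathway tend to rise and fall together with the sterol supply.

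The median bead signal was 191 to 203 on the 6 arrays, and log2 values correlated across genes at 0.988 to 0.993 between arrays of one line and at 0.967 to 0.976 between lines (Pearson). Of 7 biliary epithelial markers, the 6 with a probe were detected, and none passed the test between the lines. Of 7 hepatocyte markers 1 was detected on at least 3 arrays, with APOB, CYP3A4 and TAT on 0; of 5 fibroblast markers 2, with COL3A1, DCN and PDGFRB on 0; and of 4 leukocyte markers 1, with PTPRC and CD3E on 0. The linear signal summed over the hepatocyte markers was 458 to 504 on the arrays labelled WTAP and 543 to 617 on the mock arrays, and over the fibroblast markers 272 to 469 on the arrays labelled WTAP and 250 to 303 on the mock arrays. The fibroblast marker LUM was higher on all 3 arrays labelled WTAP, by 1.03 ± 0.33 on the log2 scale (limma adjusted p = 0.0632). Over the leukocyte markers the sums were 241 to 351 on the arrays labelled WTAP and 297 to 340 on the mock arrays. Their part in the results was not tested. WTAP itself read 9.96, 9.90 and 9.85 on the log2 scale on the arrays labelled WTAP, against 9.77, 9.89 and 9.85 on the mock arrays. The difference was 0.06 ± 0.10 (SE; limma adjusted p = 0.703), so the arrays did not show the labelled increase and the direction of every difference below rests on the labels. A second WTAP probe, also detected on all 6 arrays, differed by -0.01 ± 0.15 (limma adjusted p = 0.970 at probe level). Further WTAP probes were detected on at most 2 arrays. Whether the WTAP probes lie within the introduced sequence is unknown.

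Of the 25 lipid synthesis genes 2 passed the threshold (8%), SCAP higher and LPIN1 lower, where 20.4% of all tested genes passed (limma, Benjamini-Hochberg adjusted p under 0.05), 10.5% higher and 9.91% lower. No member reached a 2-fold change (0 of 25), against 4.13% of all genes. These shares depend on the processing. With no background correction 6 of 25 members (24%) passed, against 25.6% of all genes, and the authors' processed table gave 6 of 25 (24%), against 25.9%. Median scaling gave 1 of 25 (4%), against 20.1%, and genes detected on all 6 arrays gave 2 of 25 (8%), against 23.8%. Among the mock arrays, array 6 was the lowest for 24 of the 25. Without it 3 of 25 (12%) passed, against 13.9% of all genes. It was picked after its values were seen, so leaving it out lowers nearly all member fold changes by construction. Leaving out WTAP array 4 or 5 gave 0 of 25, against 11.9% and 13.8%. For mock array 4 or 5 left out it was also 0 of 25, against 14.4% and 12.5%. For WTAP array 6 left out it was 1 of 25 (4%), against 19.6%. Levels are log2 signals after background correction and quantile normalization. A log2 fold change subtracts the mean mock level from the mean level of cells labelled WTAP, and an offset in the values makes it understate changes of dim genes. Levels of different probes are not comparable with each other.

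**Figure D1:**
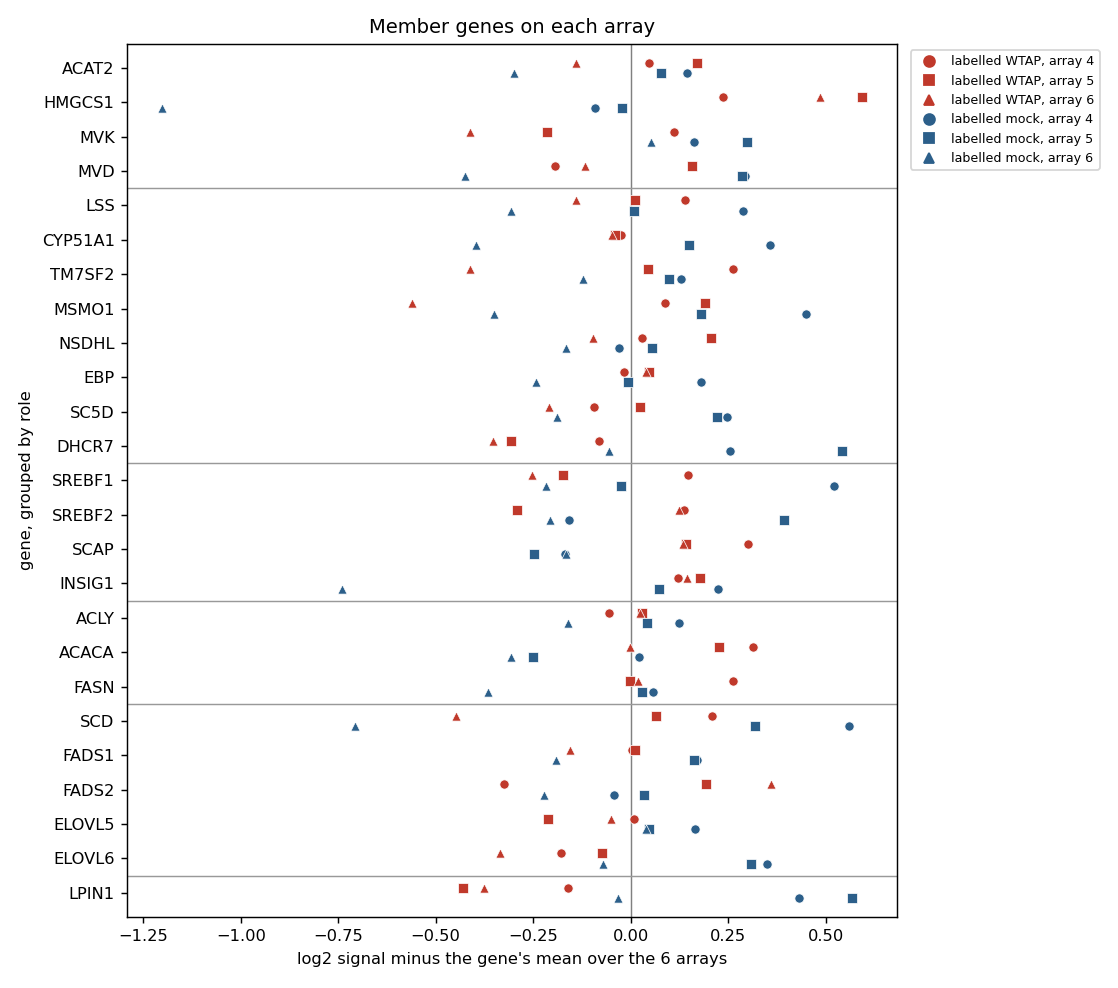
Log2 signal of the 25 detected genes on each of the 6 arrays, minus the mean of the gene over all arrays, with arrays labelled WTAP in red above the mock arrays in blue and the array number as the symbol. Mock array 6 (blue triangles) lay lowest of the mock arrays for every gene but SCAP.

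Of the 4 regulators of SREBP, only SCAP, the escort of SREBP out of the endoplasmic reticulum, passed the threshold. Over all genes 20.4% passed. SCAP read 12.00, 11.84 and 11.83 on the arrays labelled WTAP, against 11.53, 11.45 and 11.53 on the mock arrays. The groups did not overlap, and the mock arrays had an SD of only 0.05 (n = 3). SCAP rose by 0.39 ± 0.11 on the log2 scale, a fold of 1.31 with a 95% interval of 1.11 to 1.55 (limma adjusted p = 0.0354). SCAP no longer passed without WTAP array 4 (adjusted p = 0.111), WTAP array 5 (0.0711), mock array 4 (0.0794), mock array 5 (0.116) or mock array 6 (0.0746), and with median scaling (0.0644, limma, over 17 alternatives 0.00797 to 0.116). The size stayed between 0.32 and 0.42 in all 17.

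The retention protein INSIG1 is itself a classical SREBP target. It read 11.79, 11.85 and 11.82 on the arrays labelled WTAP, against 11.90, 11.75 and 10.93 on the mock arrays. Mock array 6 stood alone below the other 5. The log2 fold change was 0.30 ± 0.23 (limma adjusted p = 0.408), and without mock array 6 it was -2.68e-05. A second INSIG1 probe was also lowest on mock array 6, with 8.01, 7.89 and 7.85 on the arrays labelled WTAP, against 8.03, 7.48 and 6.46 on the mock arrays. Here mock array 5 too lay below the arrays labelled WTAP, and the difference was 0.59 ± 0.34, or 0.16 ± 0.18 without mock array 6.

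SREBF2, which encodes the SREBP that mainly drives cholesterol genes, differed by -0.02 ± 0.19 on the log2 scale (limma adjusted p = 0.958). Its probe was dim, with raw signals of 211 to 266 where the array medians were 191 to 203, so a change may be understated. SREBF1, which encodes the SREBPs tied more to fatty acid genes, read 8.89, 8.57 and 8.49 on the arrays labelled WTAP, against 9.26, 8.72 and 8.53 on the mock arrays. These groups overlapped, and the log2 fold change was -0.19 ± 0.20 (limma adjusted p = 0.56), with -0.07 on its second detected probe. Without mock array 6 the SREBF1 difference was -0.34 ± 0.20 and that of SREBF2 -0.13 ± 0.21. Both intervals, -0.46 to 0.42 for SREBF2 and -0.65 to 0.28 for SREBF1, leave room for modest differences either way.

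The early steps, from acetyl-CoA to squalene, were measured through 4 genes, none of which passed the threshold, where 20.4% of all genes passed. HMGCS1, the cytosolic enzyme that makes HMG-CoA, had the largest positive fold change of the 25. It read 11.74, 12.09 and 11.99 on the arrays labelled WTAP, against 11.41, 11.48 and 10.30 on the mock arrays. The groups did not overlap, but mock array 6 lay far below its own group. The log2 fold change of HMGCS1 was 0.88 ± 0.29, with a 95% interval of 0.20 to 1.55 (limma adjusted p = 0.0695). Without mock array 6 the difference was 0.49 ± 0.14 (limma adjusted p = 0.064). HMGCS1 passed with no background correction (adjusted p = 0.015), with an offset of 50 (0.0372) and in the authors' processed table (0.0144, limma, over 17 alternatives 0.0144 to 0.168).

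The other 3 genes of this stretch lay near or below their mock levels. MVK, mevalonate kinase, read 8.22, 7.90 and 7.70 on the arrays labelled WTAP, against 8.28, 8.41 and 8.16 on the mock arrays. Only WTAP array 4 reached the mock range. Its log2 fold change was -0.34 ± 0.15 (limma adjusted p = 0.15). MVD, which decarboxylates mevalonate diphosphate, had -0.10 ± 0.21 (adjusted p = 0.765), and ACAT2, the thiolase that joins acetyl-CoA units, had 0.05 ± 0.15 (adjusted p = 0.844, limma). MVD was at -0.34 ± 0.14 (limma adjusted p = 0.162) and ACAT2 at -0.085 ± 0.14 without mock array 6.

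None of the 8 detected genes that turn squalene into cholesterol passed the threshold, where 20.4% of all genes passed. Between the lines 7 of them overlapped, where 39.7% of all genes did not overlap. The exception was DHCR7, which carries out the last reduction of the pathway. DHCR7 read 11.61, 11.38 and 11.34 on the arrays labelled WTAP, against 11.95, 12.23 and 11.63 on the mock arrays. All 3 arrays labelled WTAP lay below the mock arrays. The log2 fold change was -0.49 ± 0.17, with a 95% interval of -0.88 to -0.11 (limma adjusted p = 0.0691).

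A second DHCR7 probe was clearer. It read 11.10, 11.09 and 10.95 on the arrays labelled WTAP, against 11.94, 11.88 and 11.45 on the mock arrays. This probe fell by 0.71 on the log2 scale (SE 0.15, limma adjusted p = 0.015 at probe level, where 19.1% of 15830 probes passed). The DHCR7 gene value passed without mock array 6, where it was -0.64 (adjusted p = 0.0333), and under 5 more alternatives (limma, over 17 alternatives 0.0166 to 0.196).

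The other enzymes of late cholesterol synthesis did not pass. LSS, which closes the sterol ring to give lanosterol, had a log2 fold change of 0.01 ± 0.16, and CYP51A1, the lanosterol demethylase, had -0.08 ± 0.18. CYP51A1 read 8.72, 8.70 and 8.69 on the arrays labelled WTAP, against 9.10, 8.89 and 8.35 on the mock arrays. The first group was nearly flat while the second spread on both sides of it. MSMO1, the sterol C4 methyl oxidase, read 12.30, 12.41 and 11.66 on the arrays labelled WTAP, against 12.67, 12.40 and 11.87 on the mock arrays. Here the array numbered 6 was the lowest in both lines. TM7SF2, a sterol reductase, had -0.07 ± 0.18, NSDHL, a decarboxylating sterol dehydrogenase, 0.09 ± 0.12, EBP, the sterol isomerase, 0.05 ± 0.13, and SC5D, the lathosterol oxidase, -0.19 ± 0.15. In limma, these 7 genes had adjusted p between 0.406 (SC5D) and 0.983 (LSS). Without mock array 6 several of them lay lower, with MSMO1 at -0.41 ± 0.24, SC5D at -0.33 ± 0.13, CYP51A1 at -0.29 ± 0.12, TM7SF2 at -0.15 ± 0.20 and LSS at -0.14 ± 0.15. EBP was then at -0.066 ± 0.12 and NSDHL at 0.031 ± 0.14, and the smallest adjusted p was 0.129 (SC5D, limma).

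The 3 genes that lead to palmitate, ACLY, ACACA and FASN, lie on chromosome 17, where the median log2 fold change of 715 tested genes was 0.14. ACACA, acetyl-CoA carboxylase, read 11.24, 11.15 and 10.93 on the arrays labelled WTAP, against 10.95, 10.68 and 10.62 on the mock arrays. Mock array 4 just overlapped WTAP array 6. The log2 fold change was 0.36 ± 0.14 (limma adjusted p = 0.102), and the second detected ACACA probe had 0.38 ± 0.15 with groups that did not overlap. After subtraction of the median change of the 20 nearest tested genes on each side, ACACA was at 0.18 ± 0.14. It passed with no background correction (adjusted p = 0.043), in the authors' processed table (0.0427) and with a trended, robust variance (0.0387, limma, over 17 alternatives 0.0387 to 0.444).

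FASN, the fatty acid synthase, differed by 0.19 ± 0.15 on the log2 scale (limma adjusted p = 0.413). Its neighbours on the chromosome had a median change of 0.33, and after their subtraction FASN was at -0.14. It was at 0.051 ± 0.13 without mock array 6. ACLY, which makes cytosolic acetyl-CoA from citrate, had -0.0031 ± 0.11 (adjusted p = 0.989, limma), with -0.19 on a second probe. ACLY was at -0.24 ± 0.13 after subtraction of its neighbours (limma adjusted p = 0.257) and at -0.084 ± 0.12 without mock array 6. Its 95% interval ran from -0.27 to 0.26.

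Among the 5 desaturases and elongases, 4 had negative fold changes and none passed, where 20.4% of all genes passed. SCD, which places the double bond of oleate, read 13.29, 13.14 and 12.63 on the arrays labelled WTAP, against 13.64, 13.40 and 12.37 on the mock arrays. Its range within the mock arrays was the wider, and array 6 was the lowest in both lines. The log2 fold change of SCD was -0.11 ± 0.32 (limma adjusted p = 0.836), -0.50 ± 0.21 without mock array 6 (adjusted p = 0.16). SCD lies on chromosome 10, where 194 of 418 tested genes passed the threshold as lower, against 9.91% of all genes. The median log2 fold change on that chromosome was -0.45. Relative to its nearest genes it was at 0.34 ± 0.32 (limma adjusted p = 0.522).

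ELOVL6, which elongates palmitate, read 11.74, 11.84 and 11.58 on the arrays labelled WTAP, against 12.26, 12.22 and 11.85 on the mock arrays. The groups did not overlap, though WTAP array 5 lay just below mock array 6. The log2 fold change was -0.39 ± 0.14 (limma adjusted p = 0.0917). With the array number as a block the same difference passed (-0.39 ± 0.10, adjusted p = 0.0481), which took the count of lower members to 2 and of called members to 3, where 22.3% of all genes passed. It also passed without mock array 6 (-0.52 ± 0.13, adjusted p = 0.0409). The second ELOVL6 probe fell by 0.43 (SE 0.11, limma adjusted p = 0.0286 at probe level).

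After subtraction of its neighbours on chromosome 4, whose median change was -0.30, ELOVL6 was at -0.09 ± 0.15 (limma adjusted p = 0.721). ELOVL5, an elongase of polyunsaturated fatty acids, had -0.17 ± 0.11 (adjusted p = 0.323), with the arrays labelled WTAP at 10.48, 10.26 and 10.42, just below 10.64, 10.52 and 10.51 on the mock arrays. FADS1 and FADS2, neighbouring desaturase genes on chromosome 11, had -0.09 ± 0.13 and 0.15 ± 0.18, or -0.21 ± 0.12 and 0.082 ± 0.21 without mock array 6. The FADS2 probe was dim, at raw signals of 193 to 227, so a change may be understated.

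LPIN1 encodes lipin, a phosphatidate phosphatase that makes the diacylglycerol for triglycerides and also acts in the nucleus on gene expression. It was the only member lower past the threshold in the gene-level test as reported, while DHCR7 and ELOVL6 passed in 6 of 17 alternatives each. LPIN1 read 10.89, 10.62 and 10.67 on the arrays labelled WTAP, against 11.48, 11.62 and 11.02 on the mock arrays. The lowest mock array, number 6, still lay above the highest array labelled WTAP. LPIN1 fell by 0.64 on the log2 scale (SE 0.17, 95% interval of the fold 0.488 to 0.838, limma adjusted p = 0.0316). Without mock array 6 the fall was larger, at -0.82 ± 0.14 (adjusted p = 0.0126). LPIN1 no longer passed without WTAP array 4 (adjusted p = 0.0553), WTAP array 5 (0.0925), WTAP array 6 (0.0697), mock array 4 (0.0922) or mock array 5 (0.0989), and with no detection filter (0.0508, limma, over 17 alternatives 0.0045 to 0.0989).

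**Figure D2:**
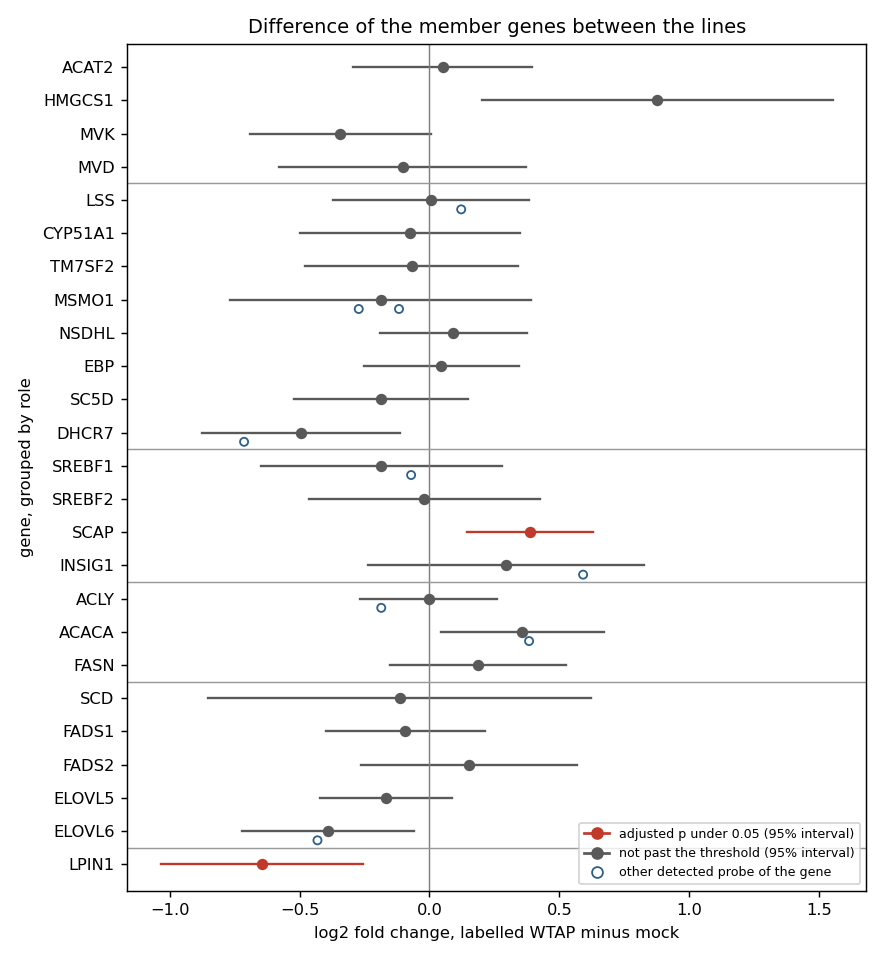
Log2 fold change of each detected gene, labelled WTAP minus mock, with its 95% interval; red marks adjusted p under 0.05 and open blue circles other detected probes of the gene. SCAP (0.39) and LPIN1 (-0.64) passed, and 23 of the 25 intervals lay within 1 log2 unit of 0 on both sides.

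As a list, the 25 genes had 10 positive and 15 negative fold changes and a median of -0.07, where the median of all 11586 tested genes was 0.0029. Without mock array 6 there were 6 positive and 19 negative fold changes with a median of -0.15. All genes then had 5821 positive and 5765 negative fold changes and a median of 0.0025. That array was picked after it was seen to be the lowest mock array for 24 of 25 members. Leaving it out therefore lowers nearly all member fold changes by construction. The member median was 0.06 when mock array 4 was left out instead. The median size of the fold change, regardless of sign, was 0.17 in the list and 0.22 over all genes, and without mock array 6 it was 0.29 in the list and 0.23 over all genes. The groups did not overlap for 6 of the 25 (24%), against 39.7% of all genes. In 2 of these (SCAP and HMGCS1) the cells labelled WTAP lay above, against 20.2% of all genes, and in 4 (DHCR7, ELOVL5, ELOVL6 and LPIN1) below, against 19.5%. An unadjusted p under 0.05 was found for 6 members (24%), against 35.1% of all genes. The 95% interval lay within 2-fold either way for 23 of 25 members (92%) and for 87.2% of all genes, the exceptions being HMGCS1 and LPIN1. Of 8 genes with more than 1 detected probe, all 8 had fold changes of one sign across their probes. These shares describe the list and were not tested against other genes.

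The members also differed by array number. Relative to the mean of its own group, the median member lay at 0.09, 0.03 and -0.11 on WTAP arrays 4, 5 and 6, and at 0.15, 0.11 and -0.27 on mock arrays 4, 5 and 6. Over all tested genes these medians stayed between -0.00358 and 0.00476. Mock array 6 was the lowest mock array for 24 of 25 members (96%), against 35.4% of all genes. WTAP array 6 was the lowest of its group for 15 of 25 (60%), against 37.1%. In 14 members (56%) array 6 was lowest in both lines, against 16.9% of all genes. Array 6 was singled out after these values were seen.

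The size of this drop differed by gene. Relative to the mean of arrays 4 and 5 of its line, array 6 differed for SCD by -0.58 in cells labelled WTAP and by -1.15 in mock cells. For HMGCS1 the same differences were 0.07 and -1.14, and for INSIG1 -0.01 and -0.89. SCD was thus lower on array 6 in both lines, while HMGCS1 and INSIG1 were low on mock array 6 and not on WTAP array 6. For MVD the differences were -0.10 and -0.71, for MSMO1 -0.70 and -0.67, and for SCAP -0.09 and 0.04. By role, the median drop on mock array 6 ran from -0.24 in the 3 fatty acid synthesis genes to -0.56 in the 4 genes from acetyl-CoA to squalene.

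The spread followed. The median SD over the 3 arrays was 0.15 in cells labelled WTAP and 0.24 in mock cells for the members, against 0.16 and 0.14 for all genes. The SD was larger in the mock cells for 19 of 25 members and for 46% of all genes. An F test of the array number over all genes, chosen after seeing the data, called 0 members and 0% of all genes (limma, adjusted p under 0.05). At an unadjusted p under 0.05 it picked 5 members (20%), against 10.5% of all genes, with the smallest adjusted p at 0.395. What the array number marks was not tested.

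**Figure D3:**
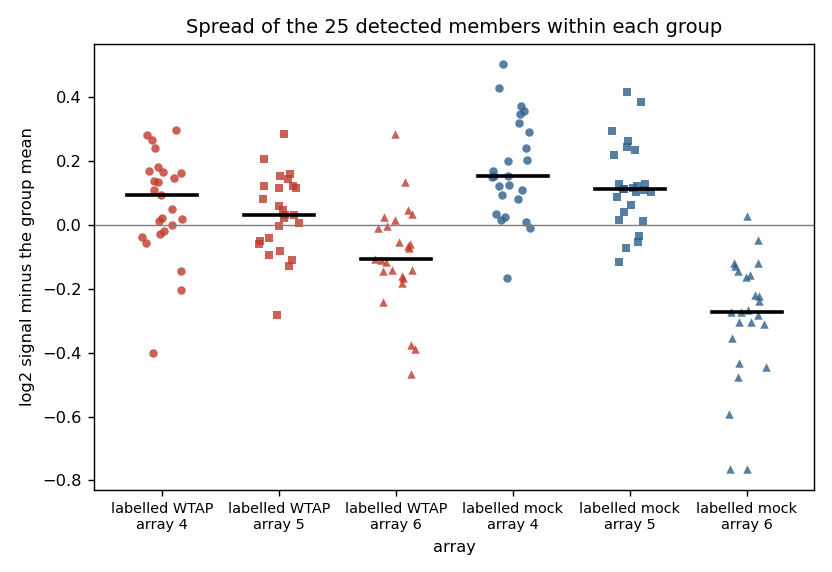
Log2 signal of the 25 detected genes minus the mean of the gene in its own group, for each array, with the arrays labelled WTAP on the left and a black bar at the median. Array 6 has the lowest median in both groups, -0.11 in cells labelled WTAP and -0.27 in mock cells.

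RefSeq promoters (GRCh38.p14, 250 bases before to 50 after the gene start) were found for 26 of the 29 genes, 23 of them detected. The letters CCAAT, the box bound by NF-Y, a partner of SREBP at sterol genes, occurred on either strand in 15 of 23 detected members (65.2%), against 37% of 9286 tested genes and 34.6% of all 35116 promoters. The SP1 box GGGCGG occurred in 20 of 23 (87%), against 68.7% of tested genes and 45% of all promoters. The E-box CACGTG occurred in 5 of 23 (21.7%), against 10.2% and 7.26%. The strict sterol element TCACNCCAC occurred in 1 of 23 (4.35%), against 1.08% and 1.13%. No overlap between these motifs was removed, and a match describes letters only.

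The one sterol element match lay in the promoter of SREBF2, 133 bases before the start, and is shown in capitals with 20 bases on each side:
SREBF2 (chr22:41832952-41833000, plus strand): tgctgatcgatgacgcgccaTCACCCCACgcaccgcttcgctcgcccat

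For comparison, the 250 bases before the start are given for SCD, HMGCS1 and MSMO1, as examples with the box, and for LPIN1 and SCAP, the members that passed between the lines. Capitals mark CCAAT on either strand (ATTGG when read on the other strand). SCD and HMGCS1 hold 2 such boxes each and MSMO1 holds 4, while LPIN1 and SCAP hold 0 in this window. Whether the number of boxes goes with the drop on mock array 6 was not tested. The largest drops were in SCD (-1.15), HMGCS1 (-1.14), INSIG1 (-0.89), MVD (-0.71) and MSMO1 (-0.67). These genes have 1 to 4 boxes each in the searched promoter. CYP51A1 (-0.65), LPIN1 (-0.53) and SREBF1 (-0.47) have 0 boxes there, as does SCAP (0.04). MVK and NSDHL have 5 each and differed by -0.18 each.
SCD (chr10:100346983-100347232, plus strand): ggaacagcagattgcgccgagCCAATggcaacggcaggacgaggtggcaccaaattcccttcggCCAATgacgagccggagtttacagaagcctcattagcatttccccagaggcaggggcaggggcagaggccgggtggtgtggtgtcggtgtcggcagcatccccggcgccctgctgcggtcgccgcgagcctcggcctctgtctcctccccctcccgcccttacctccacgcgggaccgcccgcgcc
HMGCS1 (chr5:43313413-43313662, minus strand): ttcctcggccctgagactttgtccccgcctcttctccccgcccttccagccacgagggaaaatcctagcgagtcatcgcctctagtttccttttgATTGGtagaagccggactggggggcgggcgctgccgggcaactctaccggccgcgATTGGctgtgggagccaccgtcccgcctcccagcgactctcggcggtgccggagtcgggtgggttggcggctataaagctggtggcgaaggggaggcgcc
MSMO1 (chr4:165327419-165327668, plus strand): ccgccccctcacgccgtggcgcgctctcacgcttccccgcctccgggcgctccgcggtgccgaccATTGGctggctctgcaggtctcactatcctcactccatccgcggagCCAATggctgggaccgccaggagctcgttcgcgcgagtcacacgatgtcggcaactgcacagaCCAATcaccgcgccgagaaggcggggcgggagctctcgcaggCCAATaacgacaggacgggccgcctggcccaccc
LPIN1 (chr2:11746382-11746631, plus strand): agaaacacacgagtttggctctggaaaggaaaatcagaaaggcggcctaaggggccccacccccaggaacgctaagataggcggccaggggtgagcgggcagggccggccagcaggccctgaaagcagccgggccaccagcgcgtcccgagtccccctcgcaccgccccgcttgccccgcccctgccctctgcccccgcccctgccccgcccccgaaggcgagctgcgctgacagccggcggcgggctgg
SCAP (chr3:47475942-47476191, minus strand): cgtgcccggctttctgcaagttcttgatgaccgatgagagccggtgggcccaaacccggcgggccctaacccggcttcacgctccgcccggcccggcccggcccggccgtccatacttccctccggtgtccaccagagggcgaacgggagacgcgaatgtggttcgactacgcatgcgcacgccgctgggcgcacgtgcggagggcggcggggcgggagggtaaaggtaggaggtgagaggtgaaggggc

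Other lipid genes were taken from 5 lists of neighbouring pathways, and 6 of 47 tested genes passed (12.8%), 3 higher and 3 lower, where 20.4% of all genes passed. Of 8 further sterol synthesis and SREBP pathway genes 0 passed, with log2 fold changes from -0.52 to 0.36. In limma 2 of the 8 had an unadjusted p under 0.05, against 35.1% of all genes. IDI1, the isomerase that supplies farnesyl synthesis, gave the lowest of these (-0.52 ± 0.21, limma adjusted p = 0.123). It lies on chromosome 10, where the median log2 fold change of tested genes was -0.45. IDI1 read 8.95, 9.02 and 9.03 on the arrays labelled WTAP, against 9.78, 9.81 and 8.98 on the mock arrays. Without mock array 6 it was at -0.79 ± 0.11 (limma adjusted p = 0.00787). That array was picked after values were seen and was the lowest mock array for IDI1. Leaving it out therefore enlarges this fall by construction. The 3 genes named from this list were picked after their values were seen. SQLE, the squalene epoxidase, had 0.09 ± 0.19, or -0.091 ± 0.18 without mock array 6. TMEM97, a sterol-regulated membrane protein, gave the highest (0.36 ± 0.12, limma adjusted p = 0.0742; 0.27 ± 0.13 without mock array 6).

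Of 15 tested genes of fatty acid elongation and activation 1 passed as higher and 3 as lower (26.7%), where 20.4% of all genes passed. ACSL5, a long-chain acyl-CoA synthetase, averaged 10.43 ± 0.08 in cells labelled WTAP and 11.06 ± 0.09 in mock cells (SD, n = 3 each), and fell by 0.63 (SE 0.11, limma adjusted p = 0.00625). HACD3, a dehydratase of very long chain elongation, averaged 12.17 ± 0.16 in cells labelled WTAP and 11.56 ± 0.14 in mock cells (SD, n = 3 each), and rose by 0.60 (SE 0.13, limma adjusted p = 0.0141). Both calls were lost after subtraction of neighbouring genes, at -0.28 (adjusted p = 0.176) for ACSL5 on chromosome 10 and at 0.20 (0.375) for HACD3 on chromosome 15. HACD3 also missed the threshold without WTAP array 4 (limma adjusted p = 0.0525). Across the 17 alternatives the adjusted p ran from 0.000847 to 0.375 for HACD3 and from 0.000463 to 0.176 for ACSL5.

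ELOVL1, an elongase of saturated very long chains, fell by 0.48 (SE 0.13, limma adjusted p = 0.037), and MID1IP1, a partner that activates acetyl-CoA carboxylase, fell by 0.47 (SE 0.12, limma adjusted p = 0.0302). Both lost their call without WTAP array 4, 5 or 6 (ELOVL1 adjusted p = 0.111, 0.0516 and 0.0787, MID1IP1 0.0524, 0.0658 and 0.0665) or without mock array 5 (0.0815 and 0.0947, limma). ELOVL1 also lost it without mock array 6 (0.101) or with no detection filter (0.0554, over 17 alternatives 0.00796 to 0.111). MID1IP1 also lost it without mock array 4 (0.0903) or after subtraction of neighbours (0.0651, limma, over 17 alternatives 0.00704 to 0.0947).

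Among 7 tested glycerolipid genes 2 passed as higher and 0 as lower (28.6%), where 20.4% of all genes passed. Of the 7 fold changes 4 were positive and 3 negative. The arrays labelled WTAP lay wholly above mock for 2 genes and wholly below for 2, against 20.2% and 19.5% of all genes. DGAT1, which adds the last acyl chain of a triglyceride, averaged 9.34 ± 0.21 in cells labelled WTAP and 8.57 ± 0.04 in mock cells (SD, n = 3 each). It rose by 0.77 (SE 0.13, limma adjusted p = 0.00555) and passed under all 17 alternatives. LPIN2, a paralogue of LPIN1, averaged 8.87 ± 0.12 in cells labelled WTAP and 8.49 ± 0.09 in mock cells (SD, n = 3 each). LPIN2 rose by 0.39 (SE 0.11, limma adjusted p = 0.0453), so the lipin genes LPIN1 and LPIN2 had fold changes of opposite sign. LPIN2 no longer passed without WTAP array 4 or 5 (adjusted p = 0.122 and 0.128) and without mock array 4, 5 or 6 (0.126, 0.0786 and 0.103, limma). The same held under median scaling (0.0662), with all probes tested (0.0515), with no detection filter (0.0643) and after subtraction of neighbours (0.114, limma, over 17 alternatives 0.0337 to 0.128).

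Sterol efflux and storage genes, many of them targets of the liver X receptors, gave 0 calls among 9 tested, with 8 of the 9 fold changes above 0 and a median of 0.15. Fatty acid oxidation genes gave 0 calls among 8, with a median of 0.05. Over all genes 20.4% were called. In limma the unadjusted p was under 0.05 for 3 of the 9 and for 0 of the 8, against 35.1% of all genes. The signs of these lists were not tested.

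**Figure D4:**
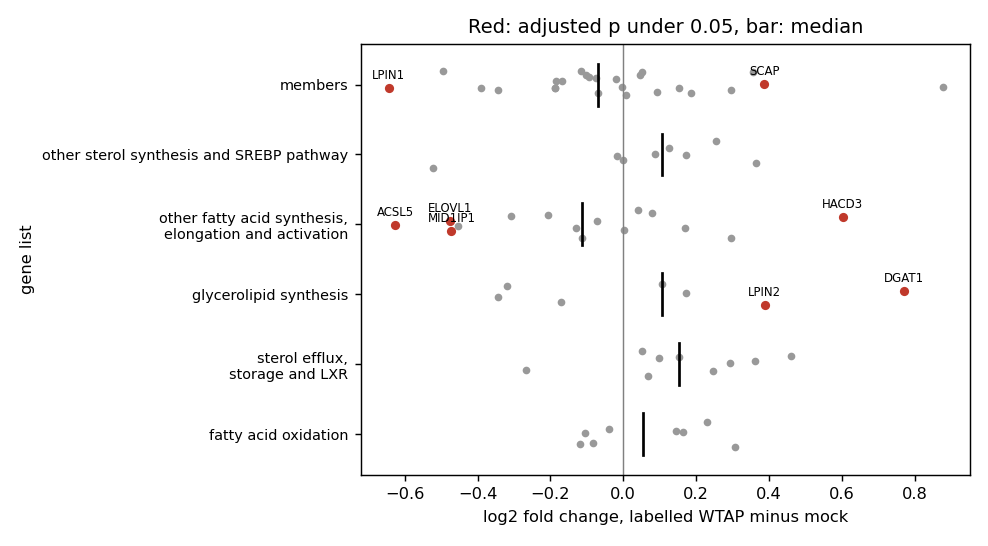
Log2 fold change, labelled WTAP minus mock, of the 25 members and of 47 genes from 5 other lipid lists, 1 point per gene, red where adjusted p was under 0.05, with a black bar at the median of each list. Called genes lie on both sides of 0, and the other sterol synthesis, sterol efflux and oxidation lists hold none.

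**Figure D5:**
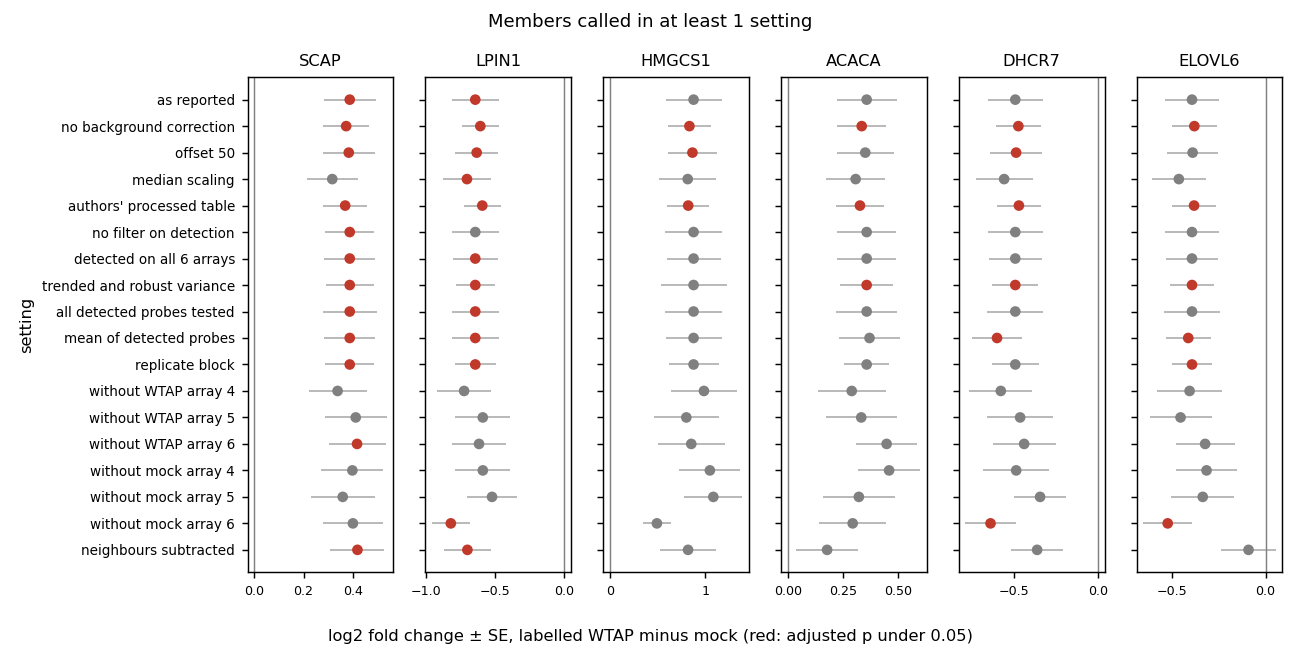
Log2 fold change with its SE for the 6 members that passed in at least 1 setting, as reported and under 17 alternatives, red where adjusted p was under 0.05. HMGCS1 is smallest without mock array 6 (0.49), and ELOVL6 nears 0 after subtraction of neighbouring genes (-0.09).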

How the data were processed

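The authors deposited bead signal intensity values and detection p-values for 6 single-colour Illumina arrays (3 labelled WTAP, 3 mock), made with BeadStudio 3.3 per the submitters' processing notes. The authors' processed intensity table served as an alternative. From the unnormalized intensities, background correction used negative controls inferred from the detection p-values (neqc, offset 16), followed by quantile normalization and log2 (limma 3.58.1, R 4.3.3). Probes with a detection p-value under 0.05 on at least 3 arrays were kept, and the probe with the highest mean stood for each gene. Lines were compared with lmFit and eBayes over 11586 genes, with Benjamini-Hochberg adjustment at 0.05, and the fit was tested on simulated data. Precision is limited by the number of arrays.

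The rule for named genes took all members and, of other lipid lists, genes past the threshold, at most 4 per list and direction by smallest adjusted p. The members and lists were chosen with earlier results of these data known. Array numbers come from the titles, and same-numbered arrays deviated together (r = 0.1206, 0.2064 and 0.227 across genes), so the block was fitted as an alternative. Probe names follow the platform annotation updated through RefSeq.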

Additional observations from a re-analysis of the deposited data

How the results depend on the processing

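The 2 called members kept their direction under all 17 alternatives, and SCAP and LPIN1 each kept the call in 11. Members called higher numbered 3 with no background correction, 2 with an offset of 50, 0 with median scaling, 3 in the authors' processed table and 2 with a trended, robust variance, against 1 as reported. Members called lower numbered 3, 2, 3 and 3 under the same settings other than median scaling, 0 with no detection filter, 3 with the mean of detected probes and 2 with the array number as a replicate block, against 1 as reported. Members then passed at 24% with no background correction (25.6% of all genes), 16% with an offset of 50 (23.3%), 24% in the authors' table (25.9%), 20% with a trended variance (25.9%), 16% with the mean of probes (20.8%) and 12% with the block (22.3%). The block added ELOVL6 and changed no other member call. Other lipid genes called higher numbered 5 with no background correction, 5 in the authors' table and 5 with a trended variance, and those lower 5 in the authors' table and 1 after subtraction of neighbours, against 3 each. After subtraction of neighbours 783 genes were called higher and 779 lower among 11535 tested, against 1218 and 1148 among 11586 as reported. How many calls were shared was not counted. Median scaling passed 4% of members (20.1% of all genes) and no detection filter 3.85% (10.2%). Leaving out 1 array gave 0 to 1 members higher, 0 to 3 lower (3 without mock array 6) and a member median of -0.15 to 0.06. Members passed at 0% without WTAP array 4 (11.9% of all genes), WTAP array 5 (13.8%), mock array 4 (14.4%) or mock array 5 (12.5%). They passed at 4% without WTAP array 6 (19.6%) and at 12% without mock array 6 (13.9%). Leaving out 1 array also gave 1 to 4 other lipid genes higher and 1 to 4 lower, and 684 to 1158 higher and 696 to 1114 lower over all genes.

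Sign changes occurred only in uncalled members. They were EBP -0.025, ACAT2 -0.030 and LSS -0.057 with median scaling, and NSDHL -0.066, FASN -0.14, LSS -0.15, MSMO1 0.065, TM7SF2 0.16 and SCD 0.34 after subtraction of neighbours. Leaving out 1 array moved LSS between -0.14 and 0.15, ACLY between -0.084 and 0.059, ACAT2 between -0.085 and 0.14, SREBF2 between -0.13 and 0.17, TM7SF2 between -0.22 and 0.12 and MSMO1 between -0.41 and 0.046. The same gave SCD -0.50 to 0.14, MVD -0.34 to 0.018, CYP51A1 -0.29 to 0.085, SREBF1 -0.34 to 0.029, EBP -0.066 to 0.15 and INSIG1 -2.68e-05 to 0.48. The lower end came without mock array 6 for all 12 but TM7SF2 (without WTAP array 4). The cause was not tested. The slide as a block was not run, since the columns name no slide.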
